A study of Ambystoma mexicanum with 12 samples.

Results

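The 60 genes described here were the axolotl (Ambystoma mexicanum) genes whose mean RNA level was higher in regenerating forelimbs at 0.1 uM talarozole than with solvent, and higher again at 1 uM, with the libraries of neighbouring doses lying furthest apart. They were taken from 99081 identifiers in the deposited table. Identifiers with the prefix AMEX60DDU were left aside, and 21835 of the others had at least 10 estimated counts in at least 3 of the 12 libraries. Levels were counted as log2(CPM + 0.5), where CPM is a gene's count scaled in the usual way to the total of its library. In 209 genes the group mean was higher by at least 0.5 on this log2 scale at both steps, and the 60 were those with the largest smaller gap, the gap of a step being the lowest library of the higher dose minus the highest library of the lower dose. The dose steps and gaps of these genes therefore chose them and are given as a description.

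Each library came from a pool of 3 forelimb blastemas of white (d/d) animals aged 3 months and 5 cm long, collected 14 days after amputation. Distal blastemas followed amputation through the carpals and came from animals kept in water with the solvent dimethyl sulfoxide (DMSO), with 0.1 uM talarozole (TAL) or with 1 uM TAL. Proximal blastemas followed amputation through the upper humerus and came from animals kept with DMSO. Exposure began 4 days after amputation and ran for 7 days with renewal every second day, after which all animals went into plain housing water, so the tissue was taken after the end of exposure. The 4 groups held 3 libraries each, and all of them, TAL groups included, had been in contact with DMSO. None of the 4 groups was a talarozole-treated proximal one. The study asked how excess endogenous retinoic acid bears on proximodistal patterning of the regenerating limb.

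After a salamander loses part of a limb, proliferating progenitor cells gather under the wound skin as a bud, the blastema, from which the lost part grows back. Retinoic acid, made from vitamin A by retinaldehyde dehydrogenases, binds nuclear receptors (RAR paired with RXR) that sit on target genes and switch their transcription. CYP26 enzymes of the cytochrome P450 family break it down, and talarozole inhibits them. In salamanders, added retinoic acid is known to make distal blastemas regrow more proximal limb parts. The deposited table does not pair its identifiers with gene names, and 0 of them matched the RefSeq gene list of the assembly UKY_AmexF1_1. The 60 genes are therefore given by identifier, with no role, position or sequence, and the labelled tissue could not be checked against marker genes.

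Total estimated counts ranged from 8409618 to 13937318 per library, and all 3 libraries at 1 uM TAL (11977855 to 13937318) were deeper than every other library. Over the 21835 genes, on the scale of CPM by column total, DMSO distal replicate 1 was the lowest of its group in 68.6% of cases. Genes whose values in the group were all equal were left out of this share. The median difference of group means over all 21835 genes was -0.06 from DMSO distal to 0.1 uM TAL and 0.20 from 0.1 to 1 uM TAL. With TMM scaling the second median was 0.13. Across the 21835 genes the median Spearman correlation was 0.868 over 12 pairs of libraries of the same group. It was 0.867 over 54 pairs from different groups. The levels were not centred per gene, so this measure follows mainly the differences between genes. It cannot show whether groups differ in some of them.

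Across the 60 genes the median difference of group means was 0.77 from DMSO distal to 0.1 uM TAL and 0.91 from 0.1 to 1 uM TAL, on the log2(CPM + 0.5) scale. Relative to the medians of all 21835 genes these were 0.83 and 0.71. From DMSO distal to 1 uM TAL the median was 3.54-fold on the CPM + 0.5 scale, with a range over the genes of 2.04 to 16.6-fold. The second step was the larger in 33 genes and the first in 27. Once the all-gene medians had been taken off, the second was the larger in 23. With TMM scaling in place of column totals both steps stayed above 0 in all 60 genes and at or above 0.5 in 54, while DESeq2 size factors left 47 at or above 0.5 at both steps and taking off the all-gene medians left 40. In 51 genes neither step was as much as 2 times the other. In bulk tissue such as this, a higher level cannot be told apart from more cells of a type that carries the RNA.

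Summed over the 60 genes, the level was 477, 792 and 723 CPM in the DMSO distal libraries and 1553, 1370 and 1162 CPM at 0.1 uM TAL. It was 3774, 2796 and 2361 CPM at 1 uM TAL and 2697, 2612 and 1731 CPM in the DMSO proximal libraries. A pair of genes, AMEX60DD010100 and AMEX60DD005267, made up most of each 1 uM sum. Without them the other 58 genes summed to 226 ± 88.5 CPM with DMSO distally (SD, 3 libraries in each group). The sum was 410 ± 91.4 CPM at the low and 845 ± 7.80 CPM at the high dose, and 485 ± 19.6 CPM in proximal blastemas. The proximal libraries, which took no part in ranking the genes, lay at 494, 499 and 463 CPM, above all 3 DMSO distal libraries (137, 314 and 227 CPM) and below all 3 at 1 uM TAL (854, 841 and 840 CPM). The rule had required the DMSO distal libraries to be low and the 1 uM libraries to be high, so both ends of this order were chosen and the proximal place between them is a description. The count filter had also read the proximal libraries.

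**Figure D1:**
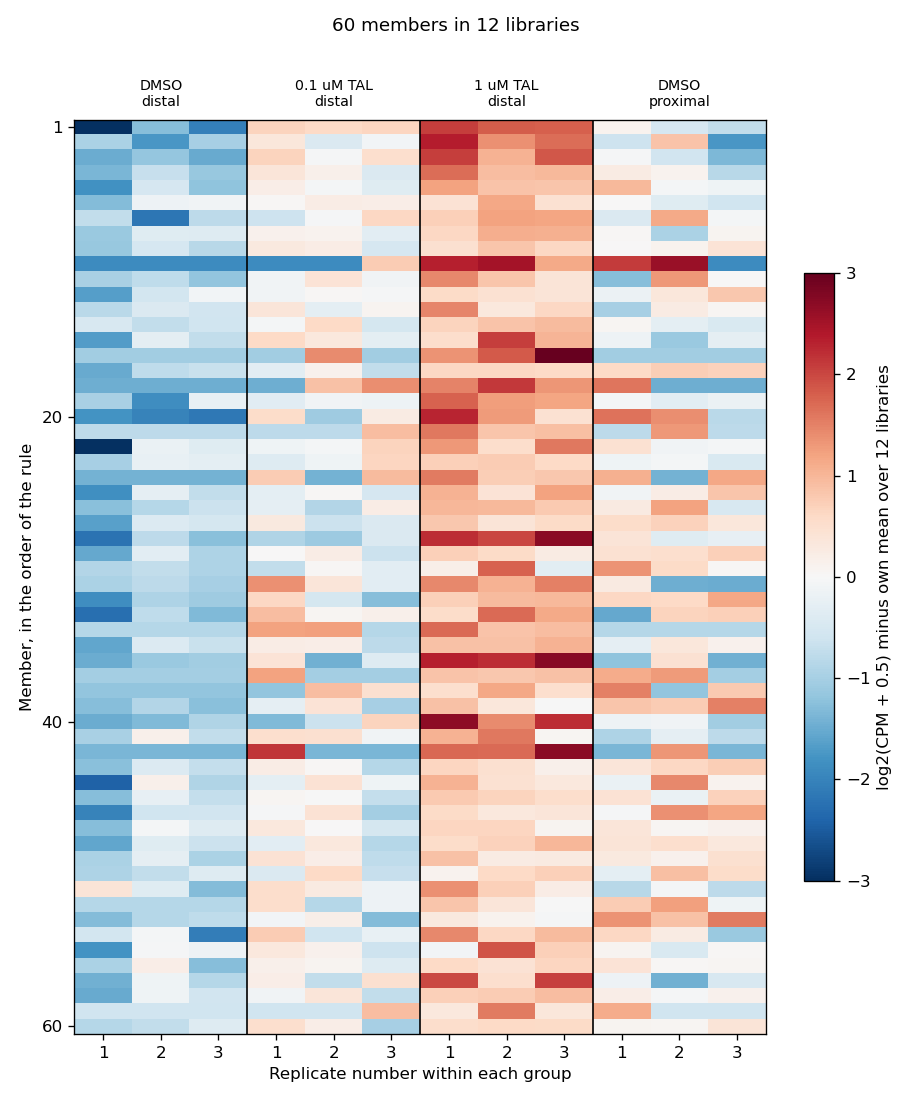
Level of each of the 60 genes (rows, in the order in which the rule ranked them) in each of the 12 libraries (columns, grouped by treatment and amputation level), as log2(CPM + 0.5) minus the gene's own mean over the 12 libraries. Blue is below and red above that mean, with the colours ending at -3 and 3. The median over the genes ran from -1.29 to -0.73 in DMSO distal, -0.32 to 0.14 at 0.1 uM TAL, 0.83 to 0.87 at 1 uM TAL and -0.06 to 0.12 in DMSO proximal libraries.

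A stepwise order of the single libraries was seen in few of these genes. In 9 of the 60 every 0.1 uM library lay above every DMSO distal library and every 1 uM library above every 0.1 uM library, and in the other 51 at least one gap was at or under 0. Among all genes with higher means at both steps, this count of 9 became 33 without DMSO distal replicate 2, 26 without DMSO distal replicate 3, and 25, 18 and 22 without 0.1 uM TAL replicates 1, 2 and 3. It was 14, 16 and 14 without 1 uM TAL replicates 1, 2 and 3, but 8 without DMSO distal replicate 1. Fewer libraries leave less room for overlap but also shift the group means, and the cause of these changes was not tested. With TMM factors and with DESeq2 size factors the count was 8, and with pseudocounts of 0.1 and 2 it was 13 and 6. Over all 21835 genes the same order at both steps was found in 0.0962%, which includes genes whose means differed by less than 0.5. Taken singly, the first step was free of overlap in 16 of the 60 genes (2.13% of all genes) and the second in 29 (19.9% of all genes). With TMM scaling these counts were 20 (3.55% of all genes) and 25 (18.1% of all genes). Across the whole dose range used here the libraries lay further apart. Every 1 uM library lay above every DMSO distal library in 57 of the 60 (8.63% of all genes). All of these counts follow from the rule that chose the genes, and nothing is read from them beyond the description.

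The spread between pools was often as large as the step. The range over the 3 libraries at 0.1 uM TAL was larger than the first step in 41 genes and larger than the second in 34. The range over the DMSO distal libraries was larger than the first step in 31 genes. DMSO distal replicate 1 was the lowest of its group in 37 of the 49 genes with a count in that group, and 0.1 uM TAL replicate 3 was the lowest of its group in 28 of the 60. Both libraries were also the lowest of their group in most of the 21835 genes (68.6% and 52.0%, without genes all equal in the group). The part of these 2 libraries in the steps was not tested beyond leaving each out. Without DMSO distal replicate 1, 34 of the 60 genes were again among the first 60, and without 0.1 uM TAL replicate 3 it was 37. In both cases these were all of the 60 whose means were still higher by at least 0.5 at both steps. The others no longer met the steps of the rule, and were not merely ranked lower.

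The opposite pattern was as frequent among the 21835 genes. Group means were lower by at least 0.5 at both steps in 221 genes (1.01%), against 209 (0.957%) that were higher at both steps. With TMM scaling in place of column totals these counts were 214 and 202. Both gaps were free of overlap in 12 of the genes that were lower at each step and in 9 of those that were higher.

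**Figure D2:**
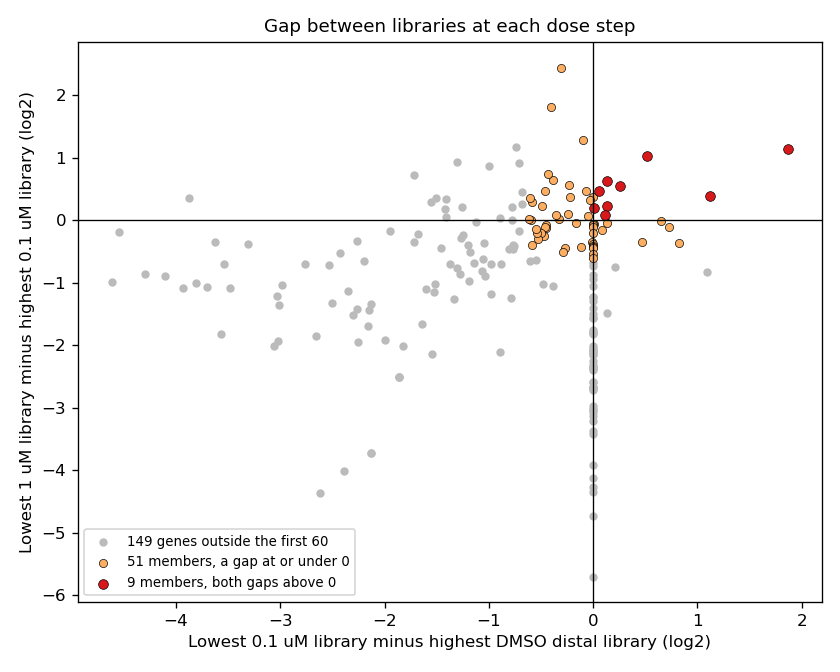
Gaps between libraries for the 209 genes whose mean was higher by at least 0.5 at both steps. The x axis is the lowest 0.1 uM TAL library minus the highest DMSO distal library and the y axis the lowest 1 uM TAL library minus the highest 0.1 uM TAL library, both in log2(CPM + 0.5). The 9 genes in red lie above 0 on both axes, the 51 in orange complete the 60, and the 149 in grey were not taken. The column of points at 0 on the x axis holds genes with 0 counts in every DMSO distal library and in at least 1 library at 0.1 uM TAL.

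AMEX60DD009927 had the widest separation of the 60. It stood at 1.14, 5.50 and 2.98 CPM in the DMSO distal libraries, 22.5, 21.4 and 22.1 CPM at 0.1 uM TAL and 60.4, 50.5 and 50.0 CPM at 1 uM TAL. The groups did not overlap at either step, with gaps of 1.87 and 1.14 on the log2 scale, and the 3 libraries at 0.1 uM were close to each other. The lowest value rests on 10 counts (95% Wilson interval 0.608 to 2.06 CPM, counting error only). In DMSO proximal libraries it was at 15.0, 9.64 and 8.24 CPM, above every DMSO distal library and below every TAL library. It was 1 of only 3 genes among the 60 in which every 0.1 uM library lay above every proximal library (2.58% of all genes), the others being AMEX60DD017912 and AMEX60DD010523.

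AMEX60DD038389 ranked next and was far less abundant. It had 3, 0 and 4 counts in the DMSO distal libraries, 15, 6 and 12 counts at 0.1 uM TAL and 112, 50 and 58 counts at 1 uM TAL. The corresponding means were 0.236 ± 0.205, 1.14 ± 0.432 and 5.55 ± 2.21 CPM (SD, n = 3 each). Proximal libraries held 6, 21 and 0 counts, so that 1 of them exceeded every 0.1 uM library on the CPM scale and another had none. The 0 count allows up to 0.357 CPM.

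The remaining 7 of the 9 genes without overlap at either step ranged widely in abundance. Over all 9, the mean at DMSO distal ran from 0.106 to 11.4 CPM, at 0.1 uM TAL from 0.872 to 25.2 CPM and at 1 uM TAL from 1.55 to 57.1 CPM. Their smaller gap ran from 0.01 to 1.14 on the log2 scale, and 4 of the 9 had under 1 CPM in DMSO distal blastemas. In 6 of the 9 the proximal mean lay below the 0.1 uM mean, and in 7 every 1 uM library, chosen to be high, lay above every proximal library (14.0% of all genes).

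AMEX60DD016524 was higher almost wholly at the second step. Its levels were 1.03, 3.65 and 2.48 CPM in DMSO distal and 3.31, 2.85 and 4.80 CPM at 0.1 uM TAL, which overlap, and then 32.6, 28.3 and 46.2 CPM at 1 uM TAL. The steps were 0.61 and 3.12 on the log2(CPM + 0.5) scale, and the first was 0.21 without DMSO distal replicate 1, under the 0.5 that the rule asks for. Proximal libraries lay at 8.78, 5.02 and 5.53 CPM, above every DMSO distal and every 0.1 uM library.

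The most abundant of the 60 at 1 uM TAL, AMEX60DD010100, varied widely between treated pools. It stood at 114, 97.9 and 89.3 CPM in DMSO distal, 583, 190 and 469 CPM at 0.1 uM TAL and 1923, 957 and 543 CPM at 1 uM TAL. The first step was free of overlap, while the lowest 1 uM library lay below the highest 0.1 uM library. The proximal libraries, at 1226, 1043 and 227 CPM, overlapped the range of both doses. The SD at 1 uM TAL was 708 CPM around a mean of 1141 CPM (n = 3).

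AMEX60DD005267, the other highly abundant gene, was by contrast even across pools at its upper level. It stood at 226, 380 and 406 CPM in DMSO distal, 519, 706 and 388 CPM at 0.1 uM TAL and 998, 999 and 978 CPM at 1 uM TAL. Replicate 3 at 0.1 uM TAL lay below the highest DMSO distal library. The proximal libraries were at 977, 1071 and 1042 CPM, overlapping those at 1 uM TAL, and their mean on the log2 scale differed from that at 1 uM TAL by 0.05.

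**Figure D3:**
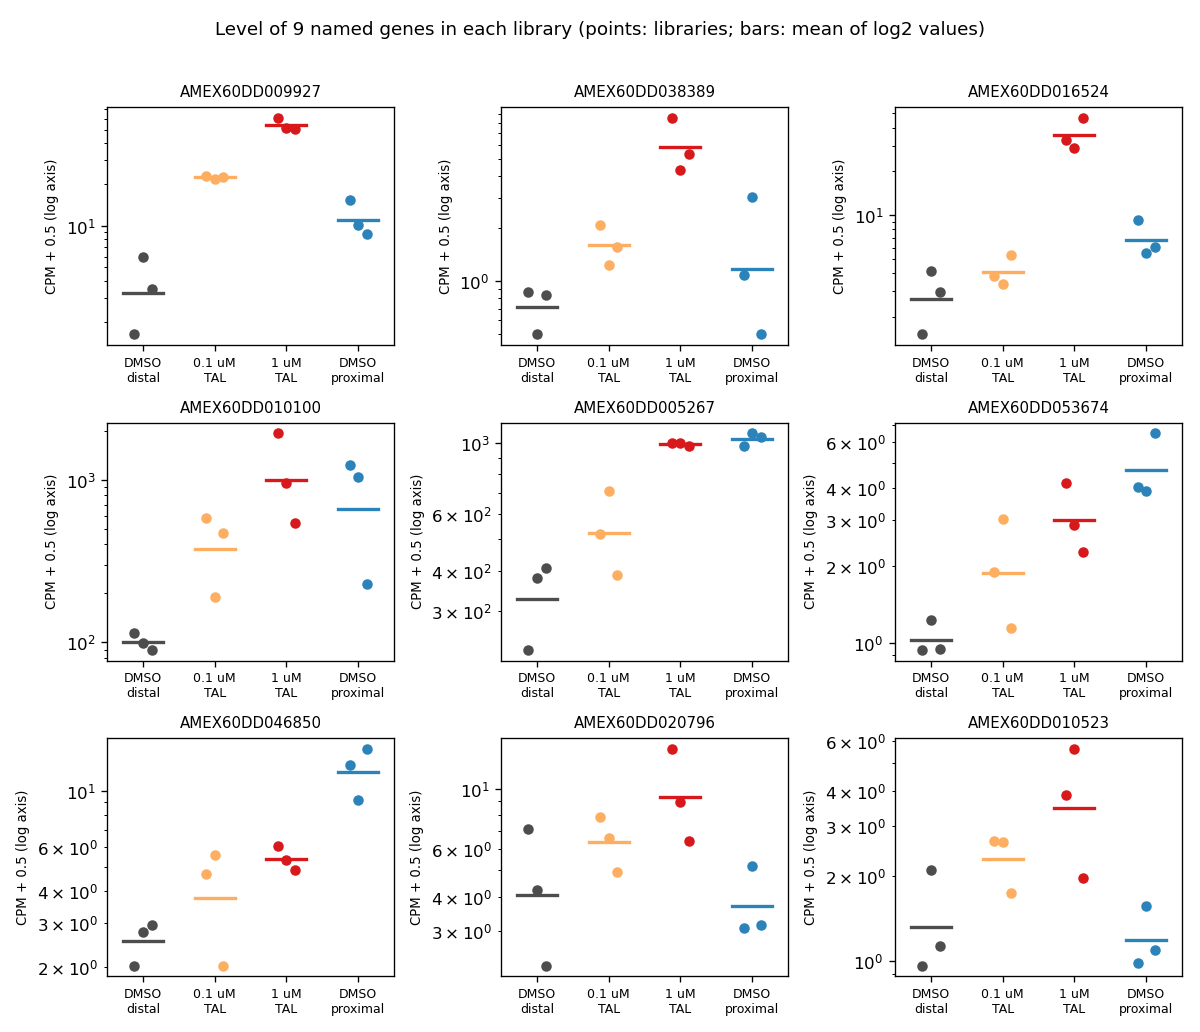
Level of 9 named genes in every library, on a log axis of CPM + 0.5 that differs between panels. Points are libraries (replicates 1 to 3 from left to right within a group) and bars the mean of the log2 values of a group. AMEX60DD009927 shows 4 separate groups, AMEX60DD016524 a jump at 1 uM TAL to 28.3 CPM or more, and AMEX60DD046850 its highest values in the proximal libraries.

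Many of the 60 genes rested on few counts. In DMSO distal blastemas 30 had a mean under 1 CPM, of which 11 had 0 counts in all 3 libraries (2.03% of all genes), while 22 had 1 to 10 CPM and 8 had at least 10 CPM. The median over the 60 was 1.07 CPM in DMSO distal, against 4.06 CPM over all 21835 genes. None of the 11 genes at 0 was separated at both steps, since each was also at 0 in 1 or 2 of the 3 libraries at 0.1 uM TAL. All 11 were detected in every 1 uM library. Such genes could pass the count filter only through TAL or proximal libraries, and the rule favoured high 1 uM libraries. Their detection at 1 uM is therefore a description. In proximal libraries 2 of the 11 were at 0 throughout, 4 were detected in 1 library, 4 in 2 libraries and 1 in all 3. The 2 at 0 there passed the filter through TAL libraries alone. The median first step was 0.88 in the 11 genes at 0, 0.79 in the 19 others under 1 CPM, 0.73 at 1 to 10 CPM and 0.65 in the 8 most abundant. For the second step the medians, in the same order, were 1.12, 0.75, 0.87 and 0.94. In the 11 genes at 0 the lower end of the first step was set by the pseudocount of 0.5.

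Of the 11 genes, AMEX60DD033140 was chosen for display after its values were seen. It had 17 counts in 1 library at 0.1 uM TAL and 0 in the other two, 19, 17 and 17 counts at 1 uM TAL, and 17, 17 and 0 counts in the proximal libraries. In each library it was thus either at 17 to 19 counts or listed at 0, and in DMSO distal libraries it was at 0 throughout.

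At the edge of the rule, the last gene taken, AMEX60DD015186, had a smaller gap of -0.61, and the first not taken had -0.64. AMEX60DD015186 stood at 0.395, 0.472 and 0.750 CPM in DMSO distal, 1.80, 1.36 and 0.318 CPM at 0.1 uM TAL and 1.85, 1.94 and 1.92 CPM at 1 uM TAL. Its 0.1 uM libraries therefore spanned the DMSO distal range. The gene before it, AMEX60DD045559, had 0 counts in all DMSO distal libraries, 10 counts in 1 library at 0.1 uM TAL, and 6, 23 and 6 counts at 1 uM TAL. The first genes outside, AMEX60DD039139 and AMEX60DD028017, were more abundant, with means of 6.55, 12.4 and 16.9 CPM and of 13.2, 23.1 and 33.1 CPM at DMSO distal, 0.1 uM and 1 uM TAL.

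The level in proximal blastemas was not used to rank the genes, but the rule required the DMSO distal libraries to be low and the 1 uM libraries to be high, with those at 0.1 uM between. The count filter did read the proximal libraries, and AMEX60DD045559 passed it only with the help of 1 proximal library. Each comparison of proximal with distal libraries therefore shares libraries that chose the genes, and its counts are a description. The proximal mean was above the DMSO distal mean in 56 of the 60 genes, against 48.6% of all genes, below it in 2 (AMEX60DD020796 and AMEX60DD010523) and equal, with 0 counts in both groups, in 2 (AMEX60DD050684 and AMEX60DD053035). The median difference was 1.01 on the log2(CPM + 0.5) scale, against -0.01 over all genes. For the 60 genes that the mirrored rule picks among those lower at both steps, the proximal mean was below DMSO distal in 58, with a median of -1.78. Both lists were chosen with the DMSO distal libraries at one end of the distal range, and in both the proximal mean lay mostly on the inner side of it.

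Placed among the distal groups, the proximal mean lay between DMSO distal and 0.1 uM TAL in 21 genes, between 0.1 and 1 uM TAL in 27, above 1 uM TAL in 8, and at or below DMSO distal in 4. Every proximal library lay above every DMSO distal library in 28 genes (5.46% of all genes) and the reverse order was seen in 0 (6.43% of all genes). Every 1 uM library lay above every proximal library in 28 of the 60 (14.0% of all genes), and every proximal library above every 1 uM library in 1 (3.84% of all genes). Against 0.1 uM TAL, all proximal libraries were higher in 8 genes (4.62% of all genes) and all lower in 3 (2.58% of all genes). In 30 genes the range over the proximal libraries exceeded the difference between the proximal and DMSO distal means.

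AMEX60DD046850 was the 1 gene in which every proximal library exceeded every 1 uM library. It stood at 12.1, 8.67 and 14.1 CPM in proximal libraries, 1.53, 2.25 and 2.44 CPM in DMSO distal, 4.20, 5.08 and 1.53 CPM at 0.1 uM TAL and 5.55, 4.82 and 4.34 CPM at 1 uM TAL. AMEX60DD053674 came next in this respect, with 3.55, 3.37 and 5.99 CPM in proximal, 0.444, 0.735 and 0.450 CPM in DMSO distal and 3.67, 2.37 and 1.75 CPM at 1 uM TAL libraries. In the first gene the 1 uM libraries stayed below the proximal range, and in the second they overlapped it.

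At the other end, AMEX60DD020796 had 2.57, 4.71 and 2.65 CPM in proximal libraries, within the 6.61, 3.72 and 1.73 CPM of DMSO distal, and 13.5, 8.44 and 5.89 CPM at 1 uM TAL. AMEX60DD010523 had 0.488, 1.07 and 0.591 CPM in proximal and 0.465, 1.60 and 0.630 CPM in DMSO distal libraries, and 3.36, 5.12 and 1.46 CPM at 1 uM TAL. For both genes the proximal and DMSO distal libraries overlapped throughout.

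**Figure D4:**
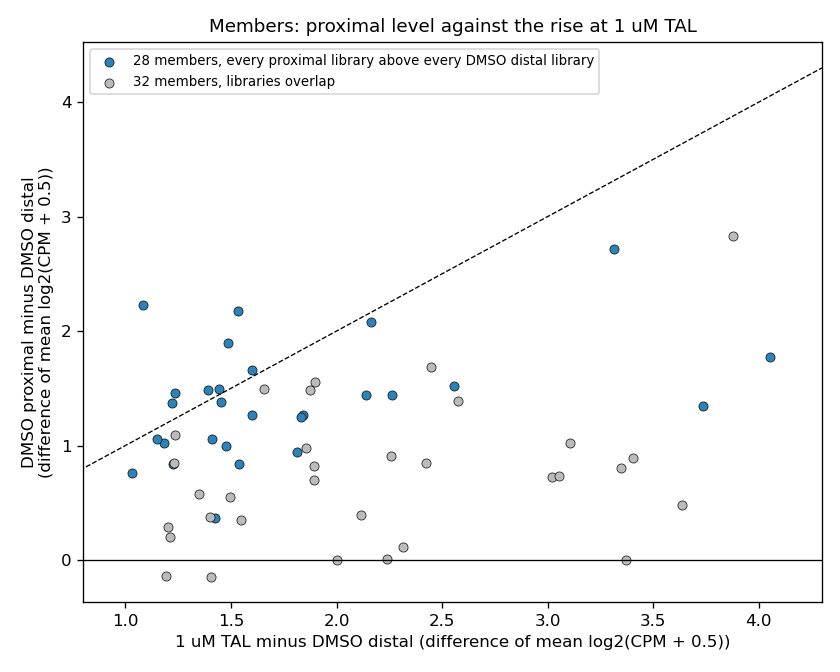
Difference of mean log2(CPM + 0.5) between DMSO proximal and DMSO distal blastemas (y axis) against that between 1 uM TAL and DMSO distal blastemas (x axis) for the 60 genes. Both axes share the DMSO distal libraries. Blue points are the 28 genes in which every proximal library lay above every DMSO distal library. On the dashed line both differences are equal, and 8 genes lie above it.

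The 6 comparisons between groups were tested over all genes with edgeR's quasi-likelihood test, in 1 fit of the 12 libraries. Benjamini-Hochberg adjustment was over 41884 genes, of which 58 were among the 60. AMEX60DDU identifiers were not left aside in these tests. For edgeR and DESeq2 a share of all genes is therefore over the genes tested, not over the 21835. Genes with an adjusted p under 0.05 were counted as called. Between the proximal and distal DMSO groups 0 of the 58 were called, and 0.0119% of all genes were. At an unadjusted p under 0.05, 32 of the 58 were higher in proximal blastemas and 0 lower, against 3.20% and 3.15% of all genes, in a comparison whose DMSO distal libraries had chosen the genes. DESeq2 called 14 of the 51 genes to which it gave an adjusted p (1.52% of all genes). The lowest adjusted p by edgeR was that of AMEX60DD005267, at 0.105, for a log2 fold change of 1.65 ± 0.241 (SE) and all 3 proximal libraries above all 3 DMSO distal libraries. AMEX60DD046850 followed at 2.49 (SE 0.393, edgeR adjusted p = 0.155). Its adjusted p by edgeR became 0.0476 without 0.1 uM TAL replicate 3. Of 17 other edgeR settings, that alone called any of the 60 in this comparison.

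Against DMSO proximal blastemas the TAL libraries had likewise chosen the genes, so the counts are given as values only. Here 0 of the 58 genes were called at 1 uM TAL by edgeR (0% of all genes), with 16 higher and 1 lower at an unadjusted p under 0.05 (4.02% and 2.74% of all genes). DESeq2 called 8 (1.46% of all genes). At 0.1 uM TAL against DMSO proximal 0 were called by edgeR (0.0143% of all genes), with 3 higher and 6 lower at an unadjusted p under 0.05 (1.89% and 1.53%). DESeq2 called 2 there (0.680% of all genes). For AMEX60DD005267 1 uM TAL over DMSO proximal gave -0.12 ± 0.235 on the log2 scale (SE, adjusted p = 1.00 by edgeR), and AMEX60DD046850 gave -1.30 ± 0.376 (SE, adjusted p = 0.686 by edgeR). Neither value shows that the groups were alike.

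The rule used the 3 comparisons among distal groups, and their calls are listed only as values. At 1 uM TAL against DMSO distal, 2 of the 58 genes were called higher, and 0.00478% of all genes were. These were AMEX60DD009927, 4.07 ± 0.439 higher on the log2 scale (SE, adjusted p = 0.0319 by edgeR), and AMEX60DD016524, 3.89 ± 0.457 higher (SE, adjusted p = 0.0399 by edgeR). At an unadjusted p under 0.05, 52 of the 58 were higher (2.31% of all genes), and DESeq2 called 27 (1.19%). Over 17 other edgeR settings the adjusted p of the first ran from 0.0230 to 0.207 with 5 calls, and that of the second from 0.0388 to 0.206 with 3 calls, while the log2 fold changes stayed between 3.54 and 4.59. At 0.1 uM TAL against DMSO distal 0 of the 58 and 0% of all genes were called higher by edgeR, 22 of the 58 had an unadjusted p under 0.05 (1.47% of all genes), and DESeq2 called 2 (0.381%). At 1 against 0.1 uM TAL 0 of the 58 and 0% of all genes were called higher by edgeR, 17 of the 58 had an unadjusted p under 0.05 (3.43% of all genes), and DESeq2 called 2 (1.21%).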

How the data were processed

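RNA was sequenced from 12 libraries of axolotl forelimb blastemas. The authors deposited estimated counts per gene, which need not be whole, in 1 table whose name credits salmon. Salmon 0.13.1 and Trimmomatic 0.38 are named in the submitters' processing notes, with no role given, and the index, annotation and filters are not given in the sources used here. Groups and replicate numbers came from the sample titles. The table holds 3 further columns of per-sample values, with a dose of 5 uM in their names, that match no sample label used here, and these were not used.

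The genes, lists and tests were chosen with earlier results of these data known. Estimated counts were rounded for edgeR 4.0.16 (filterByExpr, TMM, 4 group means, R 4.3.3) and DESeq2 1.42.0, and used as deposited for CPM. An SE is the size of the log2 fold change over the root of the F statistic. The scripts were tested on simulated counts. Named genes were, at most 2 each, those of largest gap, of highest level at 1 uM TAL, of highest and lowest proximal mean on a scale from the DMSO distal mean to the 1 uM TAL mean, those called, and those just inside and outside the rule. The design was written for symbols, which none of the identifiers has here, so fixed marker and pathway lists could not be applied. Nothing in the labels says whether pools within a group shared animals or tanks, so p-values measure only the spread between these pools. Totals of 8409618 to 13937318 counts put the limit of a count of 0 (3 counts) at 0.215 to 0.357 CPM. Alternatives were other scalings, pseudocounts, filters and tests, equal depth, the replicate number as a block, and leaving out each library.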

Additional observations from a re-analysis of the deposited data

How the results depend on the processing

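Which genes form the 60 depended on the pseudocount and on single libraries. With a pseudocount of 0.1 the genes with higher means at both steps numbered 413, and 39 of the 60 were again among the first 60. With 2 they numbered 61 and 22 were kept, 8 of them from the 8 genes with at least 10 CPM in DMSO distal blastemas and 2 from the 11 at 0 counts there. With AMEX60DDU identifiers included they numbered 567 and 33 were kept. Leaving out 1 library gave 168 to 330 genes, the highest without DMSO distal replicate 2, and kept 24 to 60 of the 60, with 24 to 37 kept without any 1 of the 9 distal libraries. TMM factors kept 52, DESeq2 size factors 46, no count filter 53 and equal depth 48. Over the 19 settings 8 of the 60 were kept in each. The count of 56 genes with a proximal mean above DMSO distal ran from 52 to 57 when 1 library was left out. The share of all genes, 48.6% with all 12 libraries, moved as well. It was 36.9% without DMSO distal replicate 1, where the count was 53, and 55.7% without DMSO distal replicate 2, where it was 57.

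Members called at 1 uM TAL against DMSO distal were 0, in place of 2, without a low-count filter, with only the 6 libraries compared, and with the replicate block. Leaving out 1 library gave 0 to 2 calls, 2 without 0.1 uM TAL replicate 3, 1 without DMSO distal replicate 1 or 2, and 0 without any of the other 9. For DMSO proximal against DMSO distal this gave 0 to 1 calls, and 0 in the 4 remaining comparisons. DESeq2 called 14 between the DMSO groups. It called 2 at 0.1 uM TAL and 27 at 1 uM TAL when the reference was the distal solvent group, 2 and 8 when it was the proximal one, and 2 between the doses. The cause of these changes was not tested. With the replicate block all 6 comparisons gave 0 calls among the 58 genes tested. At an unadjusted p under 0.05 by edgeR there were 7 to 48 of them (12.1 to 82.8%), against 2.25 to 4.73% of all genes. The 82.8% was that of 1 uM TAL against DMSO distal, which spans both steps that the rule required. All 6 comparisons hold libraries that chose the genes, so these shares are a description and no support. Same-numbered libraries of different groups deviated together at a mean r of -0.00448 over 18 pairs, from -0.232 to 0.215. For different-numbered libraries of different groups the mean r was 0.00222 over 36 pairs, from -0.215 to 0.214. Deviations were taken from the mean of each group, which ties these averages to each other. The values gave no sign that a number marks pools that belong together, but the check is weak and the labels do not say.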
